A study of Mus musculus with 12 samples.

Results

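The regions described here are coding exon peaks of AGO2-bound RNA that were listed at both postnatal day 7 (P7) and postnatal day 15 (P15) in the mouse cerebellum. A peak was taken where it overlapped a peak of the other age by 1 nt or more on the same strand, and also overlapped a coding segment (CDS) of a protein-coding transcript and no 3' UTR in GENCODE M21 on mm10. The rule gave 392 of the 4884 peaks of the P7 list and 397 of the 5173 peaks of the P15 list, 789 of 10057 in all. They joined into 375 sites, a site being a set of overlapping P7 and P15 peaks, in 164 genes. The members were chosen by the measured overlap of the peak positions at P7 and P15, so the number of shared peaks and their overlap are given as a description, with no test.

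In this study, homozygous conditional Spy3-Ago2 mice, whose genotype field reads WT, received by intracerebroventricular injection at P0 an AAV that carries Cre under the L7 promoter. L7 is active in Purkinje cells, the output neurons of the cerebellar cortex, so the tagged AGO2 was meant to form there, and all groups shared this allele and this virus. Whole cerebella were harvested at P7 or at P15. The tagged protein was pulled down on HaloLink resin carrying HaloTag-SpyCatcher3, RNA was taken from the 70 to 150 kDa part of a gel, and libraries were read on a NextSeq 2000 in 100 bp single-end runs. Each age has 2 miRNA, 2 target and 2 input libraries, 12 in all. The target libraries are represented by 1 peak list per age and by another list, of 1624 peaks, that came with the second P15 target library and is called the replicate 2 list below. The P7 list is named under both P7 target libraries, and the P15 list under replicate 1 only. Whether the P15 list pools both libraries is not stated, so each comparison is between lists, with no spread over replicates and no p-value. The lists carry positions and strands only, with no height, so a site listed at both ages may have had different occupancy at each. In whole-tissue lysate, a site missing from a list because fewer cells held the tag and a site missing because each cell held less bound RNA cannot be told apart. The 4 miRNA libraries held 6828 to 169054 counts, the P7 libraries being the shallower ones.

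AGO2 is the protein that holds a miRNA and presents its seed, the bases near its 5' end, for pairing with a messenger RNA. Pairing in the 3' UTR is the best-known route to lower translation and faster decay of the message. AGO2 also contacts coding exons, where ribosomes pass over the bound stretch, and repression through coding sites is generally held to be weaker. Purkinje cells extend their dendrites and receive their parallel fibre synapses between these ages.

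Among sites that touched no annotated 5' or 3' UTR, 13 matches to the 5 most abundant seed families searched were found, and their sequences show what the sites carry. The 4 sites of Zfp521 and Apc were left out of this list. By the mean CPM (counts scaled by the library total) of the 4 miRNA libraries, and among families with a RefSeq mature sequence, these were miR-29c-3p, miR-9-5p, miR-125b-5p, miR-138-5p and miR-127-3p. The more abundant miR-124-3p, with 34.3% of the mean CPM against 11.6% for miR-29c-3p, had no such sequence and was not searched. Among the 5 families the order differed by age. At P7 miR-9-5p led, with 125201 and 105155 CPM against 50846 and 63562 for miR-29c-3p. At P15 miR-29c-3p led, with 154749 and 193473 against 114378 and 114424 for miR-9-5p. Their mature forms are printed 5' to 3' with the seed, bases 2 to 8, in capitals.
miR-29c-3p: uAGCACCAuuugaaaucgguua
miR-9-5p: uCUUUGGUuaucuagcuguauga
miR-125b-5p: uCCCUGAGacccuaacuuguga
miR-138-5p: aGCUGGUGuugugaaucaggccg
miR-127-3p: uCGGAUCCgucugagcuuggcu

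For 4 of these 5 families, bases listed at both ages held the 7-nt reverse complement of the seed. Windows of 30 nt from the GENCODE M21 transcripts (mm10) are given below, 5' to 3' on the transcript strand, with that match in capitals. They are shown because they are the stretches where a listed site and an abundant AGO2-loaded miRNA can be set side by side.
Apc2, miR-138-5p, chr10:80311950-80311979, plus strand, exon 14 of 14: atagcttgaacagcggtagCACCAGCgatg
Apc2, miR-138-5p, chr10:80314833-80314862, plus strand, exon 14 of 14: tggtgcccaagtCACCAGCacgggcccttc
Apc2, miR-138-5p, chr10:80315874-80315903, plus strand, exon 14 of 14: gctttccCACCAGCaggcatggctccccca
Adcy1, miR-138-5p, chr11:7145042-7145071, plus strand, exon 10 of 20: acCACCAGCttcaggacgagtacttcacca
Sptbn1, miR-125b-5p, chr11:30142198-30142227, minus strand, exon 11 of 31: ttgctggaactgCTCAGGGccaggaggcag
Tnrc6b, miR-125b-5p, chr15:80879908-80879937, plus strand, exon 8 of 25: acaaaatgacatctggggtctCTCAGGGag
Prrc2b, miR-125b-5p, chr2:32223968-32223997, plus strand, exon 27 of 30: cacgatgatcctCTCAGGGggtacagcctt
Map1a, miR-125b-5p, chr2:121306634-121306663, plus strand, exon 5 of 7: gtcgaggctggacCTCAGGGatgtgctaca
Itpr1, miR-125b-5p, chr6:108417951-108417980, plus strand, exon 39 of 62: tacagaccCTCAGGGaaatgatgaccaaag
Itpr1, miR-9-5p, chr6:108417962-108417991, plus strand, exon 39 of 62: agggaaatgatgACCAAAGacagaggctat
Tbc1d16, miR-29c-3p, chr11:119148934-119148963, minus strand, exon 11 of 12: atgcatatgaatggagagcTGGTGCTcagg
Glud1, miR-29c-3p, chr14:34335346-34335375, plus strand, exon 7 of 13: tttTGGTGCTaaatgtgttggtgttggaga
Rbm15b, miR-29c-3p, chr9:106884976-106885005, minus strand, exon 1 of 1: caTGGTGCTgaggagaggagccaccatcac

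The 13 matches fell in 10 genes. Windows beside shared peaks held matches to the same families as well, as described below. The 13 matches thus do not set the sites apart from the sequence around them. Apc2, a neuronal relative of the APC scaffold that binds microtubules, held 3 of the 4 miR-138-5p matches, all in its last exon. Itpr1, the inositol trisphosphate receptor of the Purkinje cell endoplasmic reticulum, held matches to 2 families within 1 site of 50 nt. Tnrc6b, a partner of AGO proteins in silencing, held a match to miR-125b-5p near the 3' end of the 92 nt listed at both ages. Of the 12 sites behind these matches, those in Adcy1 and Sptbn1 also overlapped the replicate 2 list.

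Seed matches were about as common in the windows beside the peaks as in the peaks, within counting error. The search took 47 seed families of at least 1000 mean CPM, which together held 58.9% of the mean CPM. A 7-nt match to any of them was present in 102 of 391 shared peaks at P7, 26.1% (95% exact interval 21.8 to 30.7). The windows of equal length just upstream and just downstream on the transcript held a match in 23.0% and 24.8%. At P15 the share was 25.3% of 396 peaks (21.05 to 29.8), against 26.5% upstream and 29.8% downstream. The 6 intervals overlapped, and the P15 value lay below both of its flanks. Coding exon peaks listed at 1 age only had a match in 19.6% at P7 and 21.3% at P15, and their flanks stood at 18.1% to 21.02%. The higher share in shared peaks was thus seen in their flanks as well, and shared peaks were also longer, as described below. miR-124-3p, which took 34.3% of the mean CPM, was not searched.

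**Figure D1:**
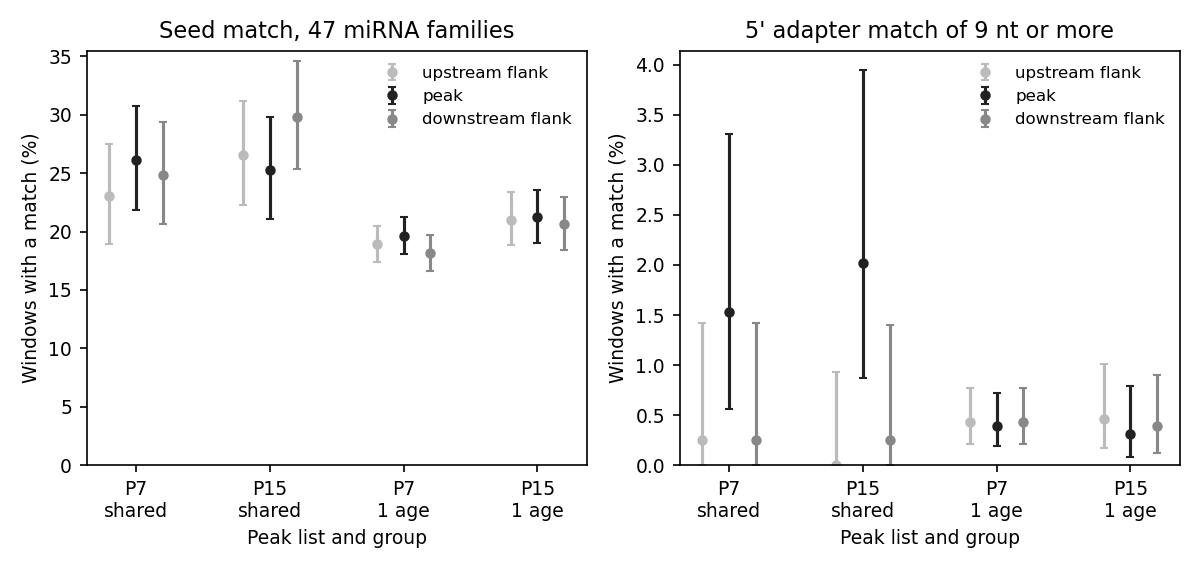
Share of windows (%) with a seed match of 7 nt to any of 47 miRNA families (left) and with a stretch of 9 nt or more of the 5' adapter (right), for peaks and the equal windows on either side. Points are shares and bars are 95% exact binomial intervals, which cover counting error only. Seed matches were present in 26.1% and 25.3% of shared peaks, within the range of their flanks' intervals, while adapter stretches stood at 1.53% and 2.02% of shared peaks against 0.256% or less in the flanks.

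Among single families, miR-29c-3p matches were in 4 shared peaks at P7 and in 0 of the windows on either side, and in 3 at P15 with 0 upstream and 1 downstream. For miR-125b-5p, 8 peaks at each age held a match, against 3 and 6 flanking windows at P7 and 5 and 3 at P15. For miR-138-5p the 7 peaks at P7 were outnumbered by 10 windows on each side. The 9 peaks at P15 stood between 8 and 10. These counts are too small to set the families apart from their flanks.

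Of all coding exon peaks, 13.3% at P7 (392 of 2943) and 23.4% at P15 (397 of 1694) overlapped a peak of the other age. Over all peaks of any location the values were 28.5% at P7 and 27.4% at P15, so coding exon peaks were shared less often than listed peaks as a whole. The gap between 13.3% and 23.4% goes with the list sizes, since the P7 list held more coding exon peaks. With the overlap required to cover at least 50% of both peaks, 220 P7 and 219 P15 peaks remained. At the edge of the 1-nt rule, 5 pairs shared 5 nt or less, in Cbarp, Apc2, Trio, Soga1 and Sbk1, with overlaps of 2, 4, 2, 3 and 2 nt. Just outside it, 5 P7 and 9 P15 coding exon peaks missed a peak of the other age by 0 to 4 nt, among them adjoining peaks of Mllt6 with a gap of 0 nt and of Ctnnd2 with a gap of 1 nt.

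Of the 375 sites, 338 joined 1 P7 and 1 P15 peak and 37 joined 3 or more. The largest, in Apc2, joined 2 P7 and 4 P15 peaks. Within the 338 pairs the overlap had a median of 45 nt (quartiles 33 and 58, range 2 to 164). As a share of the bases under either peak, its median was 59.7%. The 5' edges differed by a median of 9 nt and the 3' edges by 10 nt. Both edges lay within 5 nt of each other in 62 pairs, the 5' edge alone in 74, the 3' edge alone in 73 and neither in 129. In 185 pairs 1 peak lay inside the other. The P15 peak was the wider in 184 pairs, the P7 peak in 143, and 11 were equal.

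**Figure D2:**
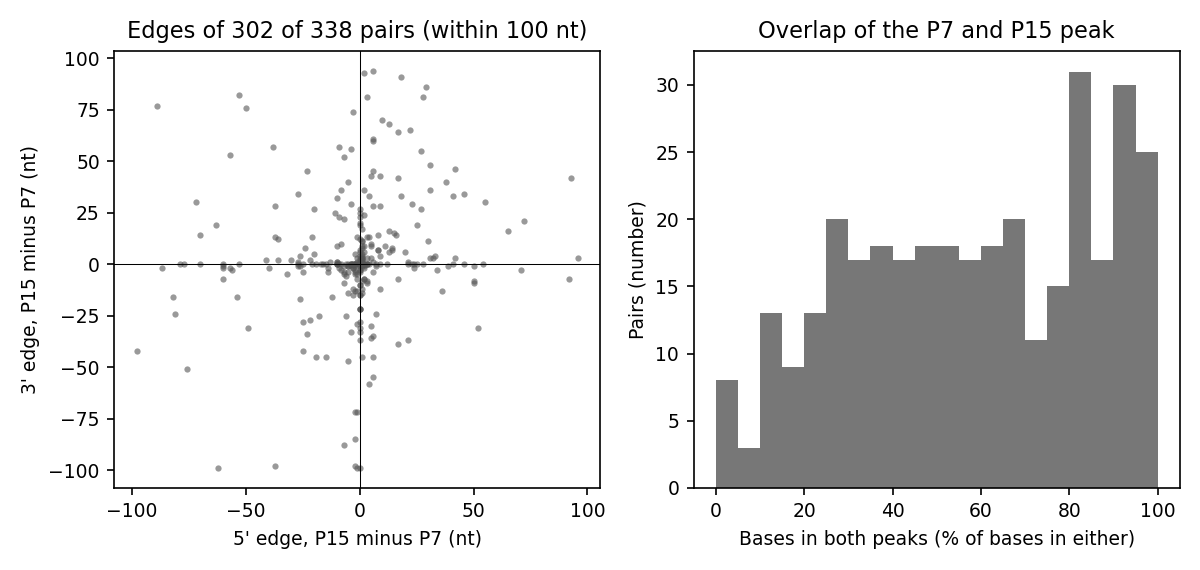
Position of the P15 peak relative to the P7 peak in each pair: difference of the 5' and 3' edges in nt (left, 302 of 338 pairs, each point 1 pair) and bases in both peaks as a percent of bases in either (right, number of pairs). Points gather along both zero lines, where 39 pairs had the same 5' edge and 55 the same 3' edge, and the overlap spread from 1.82% to 100% with a median of 59.7%.

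In 6 pairs both edges were identical. They were in Rps12 and Rps3a1, which encode proteins of the small ribosomal subunit, Pip5k1c, which makes the lipid PIP2 at synapses, Apba1, a synaptic adaptor, Mboat2, a lipid acyltransferase, and Prrc2b, an RNA-binding protein. Their widths ran from 24 nt in Mboat2 to 85 nt in Pip5k1c. Every 24-nt stretch of the Rps12 and Rps3a1 peaks also occurred in other annotated genes, mostly pseudogenes such as Rps12-ps3, so the origin of those reads is uncertain. The same was true of the Rps20 peaks at both ages and the Siah1a peak at P7. Among all shared peaks, 15 of 389 at P7 and 17 of 395 at P15 held any 24-nt stretch found in another gene.

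Among the 338 pairs of 1 P7 and 1 P15 peak, the 10 longest overlaps lay in 9 genes, Prrc2b having 2. Sites of 3 or more peaks were not ranked here, and some of them held more shared bases, such as 363 nt in the largest Apc2 site. To show the kind of sequence involved, the central 30 nt of 5 of them are printed 5' to 3', in lower case throughout.
Prrc2a, chr17:35152686-35152715, minus strand, exon 24 of 31: gcctgggttctgggcagtgtgttccagagc
Prrc2b, chr2:32204081-32204110, plus strand, exon 12 of 30: aagttcatccagtcagagatgtccgaggcc
Tbc1d16, chr11:119209234-119209263, minus strand, exon 3 of 12: gctatatcactcccgagagctctcctgtgc
Shank1, chr7:44352622-44352651, plus strand, exon 24 of 25: ggcggcggtccacgctattcctgtccaccg
Adcy1, chr11:7144805-7144834, plus strand, exon 9 of 20: cagagctggagatggccgatctgaacttct

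The Prrc2a overlap was the longest of these pairs, 164 nt in a P7 peak of 164 nt and a P15 peak of 168 nt. In Prrc2b the overlap was 156 nt and the 2 peaks were 165 and 163 nt wide. Tbc1d16 differed from these: a P15 peak of 148 nt lay wholly inside a P7 peak of 345 nt. The remaining overlaps on this list were in Apc2 (154 nt), Adgrl1 (123 nt), Mtss1l (111 nt), Shank1 (110 nt), Adcy1 (107 nt), Prrc2b again (103 nt) and Lrrc4b (94 nt). Of the 10, the Adcy1 site was the 1 that also overlapped the replicate 2 list.

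The sites were unevenly spread over genes. Of the 164 genes, 108 had 1 site, 39 had 2 to 4 and 17 had 5 or more, and these 17 held 165 sites, 44% of all. The 8 genes with most members held 32.1% of the P7 and 32.998% of the P15 shared peaks. Coding exon peaks at both ages were present in 370 genes, of which 44.3% had a site. In 75 of the 164 genes a 3' UTR peak was also listed at both ages, and in 39 at neither. The corresponding counts for the 370 genes are not given here, so these 2 values describe the genes with a site only.

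Adcy1, a calcium-stimulated adenylyl cyclase, led with 23 P7 and 26 P15 shared peaks in 22 sites over 17 of its 20 exons. All 23 of its P7 coding exon peaks were shared, and 26 of 34 at P15. Prrc2b had 23 and 22 shared peaks (20 sites) of 37 and 31 coding exon peaks. Prrc2a had 22 and 19 (18 sites) of 34 and 27. These 2 genes encode large proline-rich RNA-binding proteins.

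Apc2 had 15 shared peaks at P7 of 29 listed, and at P15 all 18 of its coding exon peaks were shared. Of its 14 sites, 12 lay in the last exon, which is 7224 nt long. The reverse held in Shank1, a scaffold of the postsynaptic density, where all 12 P7 peaks were shared but only 11 of 35 at P15. Bsn, which encodes the presynaptic scaffold Bassoon, had 12 of 21 and 14 of 56, with 6 of 11 sites in exon 5 of 12.

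Adgrl1, the adhesion receptor latrophilin 1, had 11 of 17 P7 and 10 of 20 P15 peaks shared. Tbc1d16, which acts on Rab GTPases in membrane traffic, had 8 of 12 and 11 of 14. Dgkz, a diacylglycerol kinase, had 6 and 6 shared peaks and Tnrc6b 6 and 6, all Tnrc6b sites lying in exon 8, which is 2340 nt long. Cic, a transcriptional repressor, had 6 and 5. Hcfc1, a chromatin regulator, Sbk1, a kinase, and Srrm2, a splicing protein, had 5 and 6 each.

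**Figure D3:**
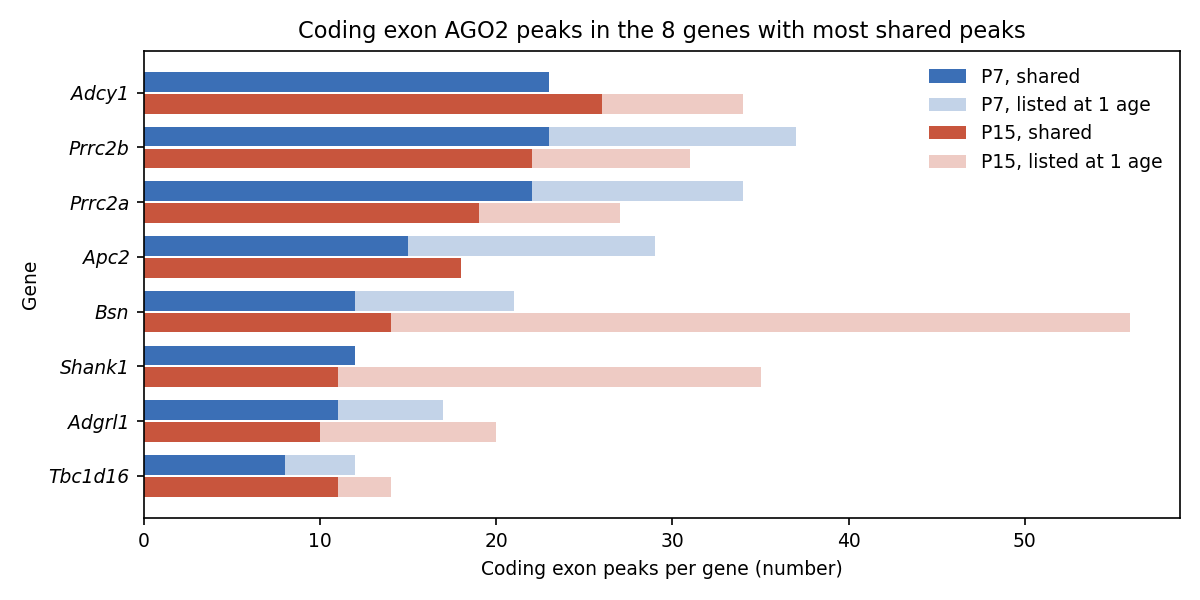
Number of coding exon peaks in the 8 genes with most shared peaks, at P7 (blue) and P15 (red); solid bars are shared peaks, pale bars peaks listed at 1 age. Adcy1 at P7, Shank1 at P7 and Apc2 at P15 have no pale bar, while Bsn and Shank1 carry 56 and 35 coding exon peaks at P15, most of them pale.

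Peaks were shared most often in genes with 10 or more coding exon peaks in the other list. Among P7 coding exon peaks of genes with 1 such peak in the P15 list, 14.9% were shared (11.6 to 18.7), and where the gene had 10 or more, 60.1% were (54.4 to 65.7). For P15 peaks the corresponding shares were 18.2% (13.3 to 23.9) and 46.6% (41.7 to 51.6). With 2 to 4 such peaks the shares were 13.7% at P7 and 19.1% at P15, and with 5 to 9 they were 24.7% and 31.6%. In genes with none in the other list, 0 of 1415 P7 and 0 of 417 P15 peaks were shared. The rule all but fixes these values, since a shared peak needs a peak of the other age on the same bases. The shares in all groups are a description of the overlap that chose the members, with no test. These groups count peaks and take no account of the length of the coding sequence. A gene with much of its coding sequence under peaks at 1 age leaves less room for a peak of the other age to miss, and the covered share is therefore given beside the overlap.

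In the 370 genes with coding exon peaks at both ages, P15 peaks covered 6.29% of the coding sequence of the main transcript and 19.9% of the bases under P7 peaks. Without the 8 genes with most members the values were 5.04% and 14.6%. These shares describe the overlap that chose the members and carry no test. In Adcy1 the P15 peaks covered 73.3% of the 3354-nt coding sequence and 78.4% of the bases under P7 peaks, values that lay close together. In Bsn they were 41.7% and 46.5%, and in Prrc2a 35.7% and 43.8%. The gap was wider in Shank1, with 52.5% and 84.0%, and in Prrc2b, with 36.6% and 55.2%. The Prrc2b values cover the 4458-nt coding sequence of its main transcript, which leaves out some of its coding exon peaks. In Apc2 the P15 peaks covered 20.8% of the coding sequence and 29.0% of the P7 bases.

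**Figure D4:**
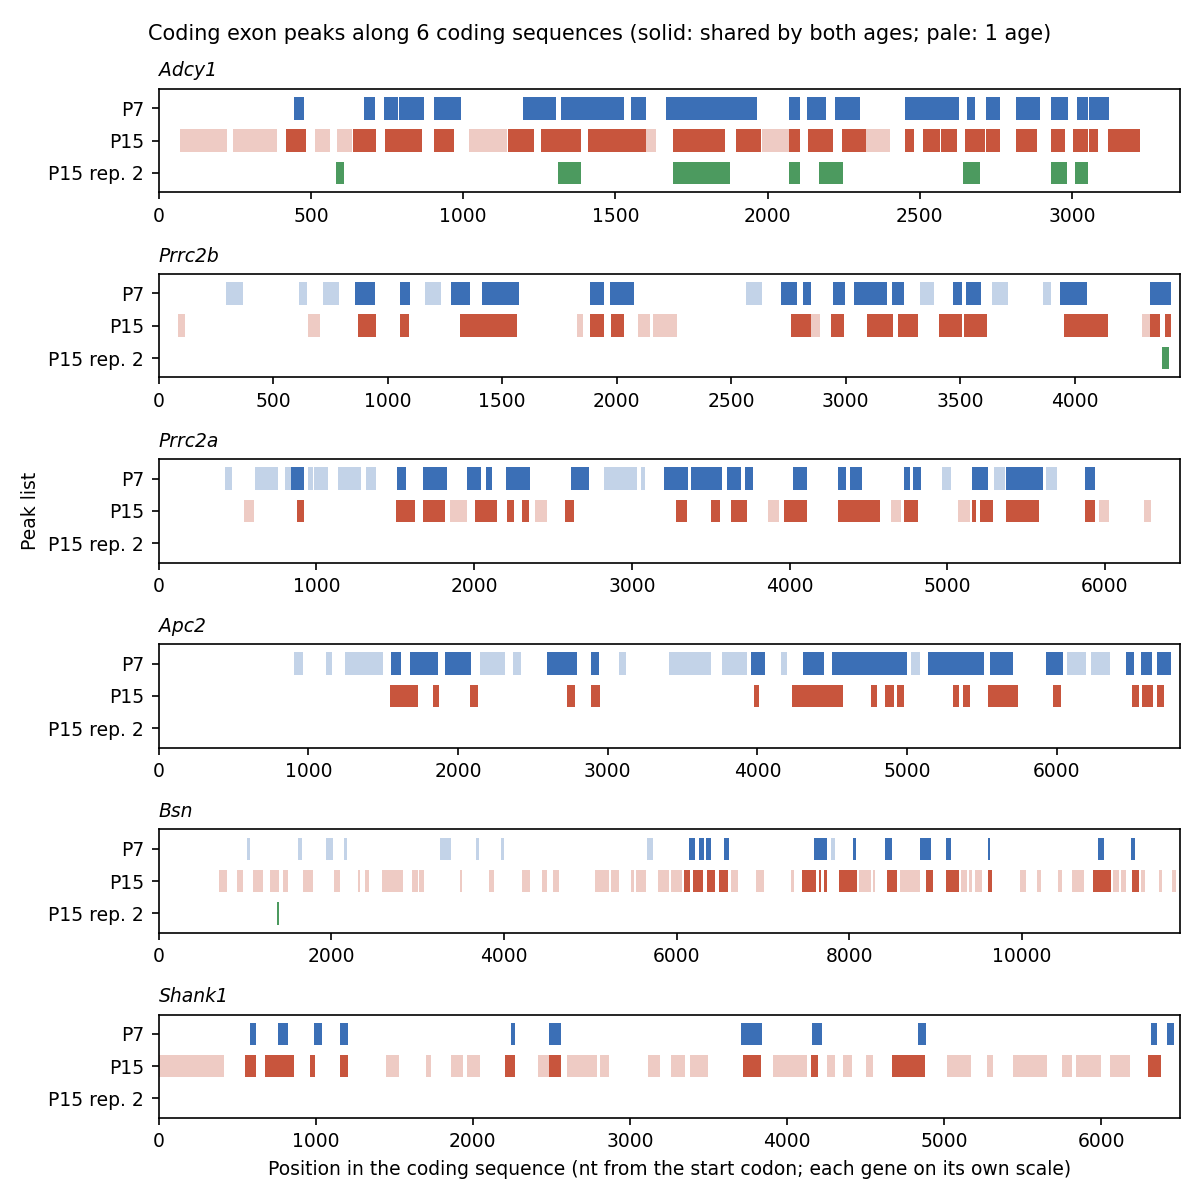
Coding exon peaks along the coding sequences of the 6 genes with most shared peaks (nt from the start codon, each gene on its own scale), for the P7, P15 and replicate 2 lists; solid bars are shared by both ages, pale bars listed at 1. Peaks cover most of the Adcy1 coding sequence (54.3% at P7 and 73.3% at P15), whereas P7 peaks cover 10.2% of that of Shank1. Prrc2b is drawn on a coding sequence of 4458 nt, so not all of its 37 P7 and 31 P15 coding exon peaks appear. Its pair with identical edges, in exon 16 of 32 of another transcript, is among those not drawn.

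Shared peaks were wider than coding exon peaks listed at 1 age, with medians of 60 against 50 nt at P7 and 62 against 51 nt at P15. A wider peak meets the 1-nt rule more readily, so this difference is in part fixed by the rule. They also lay in longer exons: 33.9% at P7 (29.3 to 38.9) and 34.3% at P15 (29.6 to 39.2) were in exons of 1000 nt or more, against 20.5% (19.0 to 22.1) and 27.4% (24.96 to 29.9) of peaks listed at 1 age. The intervals were apart at P7 and touched at P15, but they treat peaks of 1 gene as separate. The 8 genes with most members held 32.1% of the P7 and 32.998% of the P15 shared peaks, and their part in this difference was not tested. Last exons held 14.0% and 15.1% of shared peaks, and first exons 3.06% and 2.77%.

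Along the coding sequence, the midpoints of shared peaks had a median position of 53.7% at P7 and 52.6% at P15, counted from the start codon. The first 20% of the coding sequence held 13.5% and 13.4% of them, against 20.2% and 16.7% of peaks listed at 1 age. The midpoint lay before the start codon in 2 P7 and 4 P15 peaks, Rps12 and Nell2 being those at both ages. The first base of a P7 peak fell on codon positions 1, 2 and 3 in 132, 132 and 128 cases, and of a P15 peak in 119, 141 and 137.

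The GC content of shared peaks had a median of 58.0% at P7 and 57.7% at P15, and that of peaks listed at 1 age 55.4% and 57.8%. Over all bases, the shared peaks exceeded the mean of both flanks by 0.859 points at P7 and 0.897 points at P15. With flanks taken 50 nt further away the differences were -0.466 and -0.142 points, so the direction depended on where the comparison window lay.

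The lists give each peak as 1 unbroken interval, so binding across a spliced exon junction cannot appear as a single entry. The exon edges were marked in the peak borders. A border lay within 1 nt of a splice site in 117 shared peaks at P7, 29.8% (25.4 to 34.6), and in 130 at P15, 32.7% (28.1 to 37.6). Peaks listed at 1 age stood at 34.7% and 31.3%, so this was no property of the shared set.

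At these borders, peaks ran exactly 1 nt past the exon edge in 65 cases at P7 and 63 at P15, and more than 1 nt past it in 3 at each age, in Grin1, Phpt1 and Nell2. For the 5' border at P7, 32 peaks began 1 nt outside the exon, 9 at its edge and 28 a base inside. The 3' border at P7 gave 34, 3 and 20. The P15 counts were 29, 7 and 42 at the 5' border and 35, 7 and 22 at the 3' border. The annotated edge itself was thus the least used of the 3 positions in all 4 cases. How the peak caller treated spliced reads is not given in the sources used here, and its part in this pattern was not tested.

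**Figure D5:**
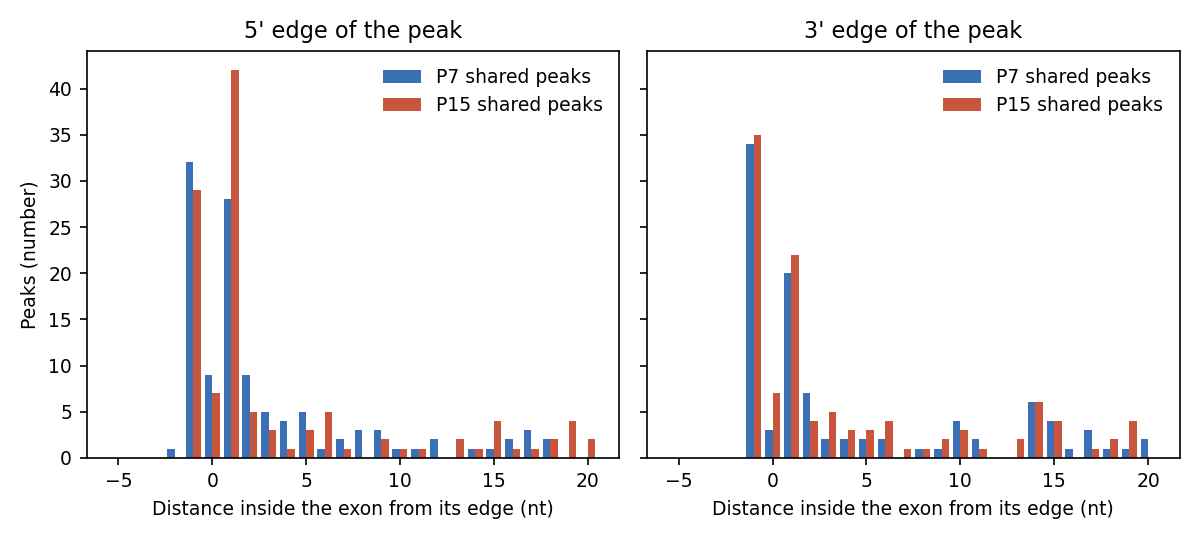
Distance of the 5' border (left) and 3' border (right) of shared peaks from the nearest edge of their exon at a splice site, in nt, for P7 (blue) and P15 (red) peaks; negative values lie outside the exon. Most borders near a splice site sit 1 nt outside or 1 nt inside the exon, as at the P7 5' border with 32 and 28 peaks, and few at 0.

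Some junctions carried peaks on both sides. Of the 57 P7 shared peaks that ended at a splice site, 21 faced a peak that began at the next exon, and of the 64 at P15, 29 did. The same count for peaks listed at 1 age is not given here, so this is not shown to be particular to the shared set. Such flanked junctions numbered 37 in 23 genes at either age and 13 at both ages. These genes were singled out after their values were seen: Adcy1 had 4 of the 13 and Prrc2a 2, and Epn1, Fasn, Prrc2b, Rps3a1, Shank1, Sparcl1 and Tbc1d16 had 1 each. The count of 375 sites takes the peaks on either side of such a junction separately.

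In the replicate 2 list, which the rule did not use, 14.0% of P7 shared peaks (55 of 392, 10.7 to 17.9) and 13.9% of P15 shared peaks (55 of 397, 10.6 to 17.6) were overlapped. Coding exon peaks listed at 1 age were overlapped in 1.57% (1.12 to 2.13) at P7 and 2.93% (2.08 to 3.999) at P15. The values over all coding exon peaks were 3.23% at P7 and 5.49% at P15, and over all peaks of any location 18.3% and 20.6%. The intervals of shared and unshared coding exon peaks did not overlap at either age, but at P7 this comparison is not independent of the rule. Replicate 2 is itself a P15 library, and the P7 peaks listed at 1 age were chosen by missing the P15 list. The P7 difference may thus in part follow from the rule. Whether the P15 list pools this library is not stated. Wider peaks and peaks of genes with many coding exon peaks were also commoner in the shared set, and their part in the difference was not tested. Without Adcy1 the shares were 12.5% and 12.4%.

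In all, 56 sites in 44 genes overlapped the replicate 2 list, 10 of them in Adcy1, 17.9%. From the other direction, 54 of the 203 coding exon peaks of the replicate 2 list overlapped both age lists, 26.6% (20.7 to 33.2). Prrc2a, Apc2, Bsn and Shank1, with 11 to 18 sites each, had 0 sites in it, and Prrc2b 1 of 20. These genes had 0 or 1 coding exon peak in that list at all.

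Among pairs of 1 P7 and 1 P15 peak, those with the most bases in all 3 lists included Adcy1 with 107 nt in exon 9 and 61 nt in exon 10, and Itm2b with 88 nt. The central 30 nt of 4 sites outside Adcy1 are shown, as examples of coding sequence listed 3 times over.
Itm2b, chr14:73366428-73366457, minus strand, exon 3 of 6: atgccccagctgctcgctaccagacaattg
Kif1b, chr4:149247836-149247865, minus strand, exon 16 of 47: tcaatgaagacccattaatgtcggagtgtt
Atp6v1e1, chr6:120808429-120808458, minus strand, exon 3 of 9: tcaacattgagaaaggtcgccttgtgcaaa
Klhl9, chr4:88720359-88720388, minus strand, exon 1 of 1: ggagttgcagtctttgaaaacaaaatctat

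Itm2b encodes a membrane protein of the BRI family, and its P15 peak and replicate 2 peak had the same borders, 73366399 to 73366486, inside a P7 peak of 128 nt. Kif1b, a motor of axonal transport, had 62 nt in all 3 lists, from peaks of 64 nt at P7 and 66 nt at P15. Atp6v1e1, a subunit of the proton pump of acidic vesicles, had 57 nt from peaks of 58 and 57 nt. Fem1b and Klhl9, which bring substrates to ubiquitin ligases, had 55 nt each, and Pomp, a proteasome assembly factor, 53 nt. Grin1, the obligate subunit of NMDA receptors, had 52 nt, but its peaks of 52 and 53 nt ran past the end of exon 7 and only 1 base of the overlap was exonic, so this member meets the rule by its edge.

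A further group of narrow peaks held stretches of the 5' adapter used to build the libraries, a comparison chosen after its values were seen. The primer DP5 has the adapter's fixed sequence of 26 nt, and a run of 9 nt or more of it was in 6 of 391 shared peaks at P7, 1.53% (0.565 to 3.31), and in 8 of 396 at P15, 2.02% (0.876 to 3.94). In the windows beside them 1 and 1 had one at P7, and 0 and 1 at P15. Among peaks listed at 1 age the shares were 0.394% and 0.310%. Such a peak was present at both ages in 6 genes, among them Abcb6, Bcl11a, Mboat2, Ppp5c and Tmem190. The P7 peaks of these 5 are printed whole, 5' to 3', with the stretch that matches the adapter in capitals.
DP5 primer: gttcagagttctacagtccgacgatc
Abcb6, chr1:75178076-75178101, minus strand, exon 3 of 19: gccgctcaacagaCCGACGATCcacc
Bcl11a, chr11:24163964-24163985, plus strand, exon 4 of 4: gtcaAGTCCGACGATggcctct
Mboat2, chr12:24955295-24955318, plus strand, exon 11 of 13: aaccttCAGTCCGACaatccagac
Ppp5c, chr7:17022611-17022639, minus strand, exon 2 of 13: gcgatcaAGTTCTACAGTCaggccatcga
Tmem190, chr7:4784188-4784211, plus strand, exon 5 of 5: gtctaaggaCCGACGATCggccaa

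The matches were 9 nt long in Abcb6, Mboat2 and Tmem190, 11 nt in Bcl11a and 12 nt in Ppp5c. The peaks of all 6 genes were 30 nt wide or less at both ages, and they were 6 of the 27 shared peaks of that width at P7 and 6 of the 25 at P15. Of the 365 wider shared peaks at P7, 0 held a match, and of the 372 at P15, 2 did, in Maz and Zcchc14. At a minimum of 10 nt, 0.512% of P7 and 0.758% of P15 shared peaks held one. The 5 printed peaks also overlapped the replicate 2 list, and such peaks made 5 of the 55 shared peaks in that list at each age. Whether reads at these sites come from the message or from the adapter cannot be told apart in the peak lists.

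The gene lists were described by how many genes had a site, beside 0.749% of the 21901 protein-coding genes of the annotation and 44.3% of the 370 genes with coding exon peaks at both ages. Among 12 Purkinje cell markers 3 had a site: Itpr1 with 4 sites, 2 of them in the replicate 2 list, Cacna1g, a T-type calcium channel, with 2, and Rora, a nuclear receptor needed for Purkinje cell maturation, with 1. Coding exon peaks at both ages were listed for 4 of the 12. Granule cell markers had a site in 2 of 11 genes, Fat2 with 2 sites and Rbfox3 with 1, and markers of Bergmann glia and astrocytes in 2 of 9, Sparcl1 with 2 and Gfap with 1. The oligodendrocyte (8 genes), interneuron (6) and microglia and blood (5) lists had 0. Markers of cell types other than Purkinje cells thus had sites as well, and the part of RNA from cells other than Purkinje cells was not tested.

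By function, cytoskeleton and dendrite regulators had a site in 13 of 37 genes, of 17 with coding exon peaks at both ages. Apc2 had 14 of their 33 sites, and Kif1b, Map1a and Sptbn1 had 3 each. Postsynaptic scaffolds and adhesion proteins had a site in 6 of 27, of 10 with peaks at both ages, Shank1 with 12, Shank2 with 5 and Dlgap3 with 3 among them. Presynaptic proteins had a site in 4 of 27, of 10 with coding exon peaks at both ages, and Bsn held 11 of 15 sites. Ion channels and receptors had a site in 3 of 30, of 9 with peaks at both ages, with Gabbr1 joining Itpr1 and Cacna1g.

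Adhesion and guidance receptors had a site in 6 of 35 genes, of 12 with peaks at both ages, Adgrl1 holding 10 of 16 sites. Chromatin regulators and transcription factors had 6 of 39, of 12 with peaks at both ages, with Hcfc1 at 5 sites and Chd4 at 2. RNA-binding and translation proteins had 3 of 32, of 8 with peaks at both ages, and these 3, Prrc2b, Prrc2a and Srrm2, held 43 sites. Kinases and signalling enzymes had 4 of 35, of 9 with peaks at both ages, namely Adcy1, Dgkz, Brsk1 and Pip5k1c. Of 20 miRNA pathway proteins, Tnrc6b was the 1 with a site, and the only 1 with coding exon peaks at both ages.

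Shank3, En2, Vash1 and Prag1 had 0 sites. Shank3 had 25 coding exon peaks at P15 and 0 at P7, unlike its relatives Shank1 and Shank2. Vash1 had 2 coding exon peaks at P7 and 0 at P15, and En2 and Prag1 had 0 at both ages.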

How the data were processed

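The authors' deposited peak lists give chromosome, start, end and strand, and their score column is 0 throughout, which allows no ranking of peaks. The deposited miRNA files hold counts per mature miRNA, without normalisation; a word in their names is taken to mean that molecular identifiers were not used to collapse reads. The tools named in the submitters' processing notes, without role or order, are STAR 2.5.2a, Bowtie2 2.4.2, cutadapt 2.10, UMI-tools, deepTools 3.1.3 and DESeq2 1.36.0, with the mm10 build. The peak caller is not given in the sources used here.

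Peaks were placed on the GENCODE M21 coding transcript that left the fewest peak bases outside its exon. Ties went to a transcript marked as principal by APPRIS, then to the longest coding sequence and the longest transcript. The main transcript of a gene was chosen by the same order of ties. Sequence was read from annotated transcripts, with bases outside the exon left out. Members, lists and tests were chosen with earlier results of these data known. Overlap used 1 nt on the same strand, and overlaps and coding exon calls gave the same peaks as bedtools 2.31.1. The adapter counter was tested on simulated data. miRNA counts were scaled to CPM, averaged over the 4 libraries and summed by seed (bases 2 to 8) with RefSeq mature sequences, which 445 of 524 counted miRNAs had. Flanks were equal windows on the transcript. Shares have exact Clopper-Pearson intervals at 95%, which cover counting error only and treat peaks of 1 gene as separate. Python 3.11.15, numpy 2.4.6, scipy 1.17.1 and matplotlib 3.10.9 were used. Input libraries were not analysed here.

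Named were the 20 genes with most shared peaks, the 10 longest overlaps, the identical pairs, up to 4 members per list, genes with a match to the 5 leading families, the 10 longest overlaps with the replicate 2 list, and Shank3, En2, Vash1 and Prag1. Some of these are given by counts, and some are not reported here. Alternatives covered the overlap rule, annotation, seed type, family minimum, flank position, peak width and each miRNA library left out.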

Additional observations from a re-analysis of the deposited data

How the results depend on the processing

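Of 80 alternative values for 16 results, 56 stayed within 1.5 times the count or inside the interval and 24 did not. The number of shared peaks fell from 392 (P7) and 397 (P15) to 220 and 219 with a reciprocal overlap of 50%, and to 95 and 95 when the replicate 2 list replaced the P15 list. The replicate 2 list is the smaller, with 203 coding exon peaks against 1694 in the P15 list, so these counts do not compare how well the lists match. The share of shared peaks with a seed match moved with the definition of a match, at P7 to 57.5% (6-nt match), 36.6% (7-nt match that may end in A), 38.6% (peak widened by 20 nt), 53.2% (families of at least 100 CPM) and 8.44% (5000 CPM). At P15 the same settings gave 62.1%, 36.1%, 37.1%, 53.5% and 8.08%. Flanks moved with it in the settings that kept the peak: the peaks' share minus that of the flanks ranged from 0.384 to 3.33 points at P7 and from -4.04 to 2.53 at P15. With each miRNA library left out in turn, the share was 25.1% to 26.1% at P7 and 24.7% to 25.5% at P15. GC content against flanks 50 nt away was -0.466 points at P7 and -0.142 at P15. A splice site border within 0 nt was seen in 3.06% and 3.53%, and within 3 nt in 34.7% and 36.5%. The alternatives for the adapter, splice site border and Adcy1 were chosen after seeing the data. No paired analysis was possible because each age has 1 peak list and no result compares libraries. The lists give no read depth, and the P7 miRNA libraries, with 13059 and 6828 counts, limit the family ranks.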
